A study of Mus musculus with 18 samples.

Results

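The brain and its vessels are wrapped by the leptomeninges, whose fibroblasts make a matrix of fibrillar collagen and small leucine-rich proteoglycans and produce insulin-like growth factor 2 with one of its binding proteins. Fibroblasts of the same kind lie along the larger vessels that enter the brain, and a trace of meninges can come away with a block of hypothalamus when it is cut out. The 9 genes described here stand for that tissue. *Col1a1* and *Col1a2* encode the chains of type I collagen and *Col3a1* encodes type III collagen. *Dcn* (decorin), *Lum* (lumican) and *Ogn* (osteoglycin, or mimecan) are small leucine-rich proteoglycans that bind collagen fibrils. *Slc6a13* is a transporter of GABA and taurine of the leptomeninges, *Igf2* is the growth factor and *Igfbp2* a binding protein of insulin-like growth factors. Members were the probesets whose platform gene symbol is 1 of the 9 names. Each gene had exactly 1 probeset, so that 9 of the 34760 probesets on the array were taken, and 0 probesets named a member beside other genes.

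Hypothalamic RNA of 18 male mice was hybridized singly, without pooling, to Mouse Gene 1.0 ST arrays of Affymetrix. The hypertensive BPH/2J strain and its normotensive control strain BPN/3J each gave 6 mice at ‘peak’ BP, in the active period and at 26 weeks of age, and 3 mice at ‘trough’ BP, in the inactive period. The ‘trough’ mice were aged 18 weeks by the sample labels and 19 weeks in the text on the series, so that time of day and age differed together and cannot be told apart. The series calls the tissue whole hypothalamus, whereas the methods of the study describe taking the paraventricular and dorsomedial regions. BPN/3J ‘trough’ mice were assigned by their titles, while their strain label reads BPH/2J.

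Marker genes of the hypothalamus ranged from bright to dim. *Pmch*, the precursor of melanin-concentrating hormone, lay between 11.49 and 12.83 on the log2 scale in all mice, above 99.5% of probesets by its mean. *Oxt*, the oxytocin precursor, lay between 7.41 and 10.64. By mean, the genes of the hypothalamic list other than *Pmch* stood above 38.1% (*Vip*) to 97.5% (*Sst*) of probesets. The amount of choroid plexus, the secretory tissue of the ventricles, varied far more. *Ttr*, the transthyretin gene that this tissue expresses at a very high level, ran from 6.46 in BPN/3J ‘peak’ mouse 10 to 13.58 in BPN/3J ‘peak’ mouse 6. Genes of neighbouring brain regions were measured as well. *Prkcd* stood above 98.4% of probesets, and *Neurod6* ran from 4.05 in BPH/2J ‘peak’ mouse 8 to 8.62 in BPN/3J ‘peak’ mouse 8. BPN/3J ‘trough’ mouse 3 stood apart by pituitary hormones, with *Gh* at 12.40 and *Prl* at 8.56. The median of an array was between 6.17 and 6.42 in every mouse. Precision is set by how many arrays there are, since an array has no read depth.

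The label of the 9 genes was checked against a list of 45 other measured leptomeningeal and fibroblast markers. The mean of that list, taken per mouse after subtracting the mean of its group, correlated with *Slc6a13* at r = 0.928 (Spearman's rho 0.730), with *Ogn* at 0.927 (0.872), with *Igf2* at 0.923 (0.866) and with *Igfbp2* at 0.920 (0.816) over 18 mice (permutation test within groups, adjusted p from 0.000675 to 0.00211 for r). *Col1a2* had r = 0.891 (rho 0.818, adjusted p = 0.00054 by permutation). *Dcn* had r = 0.818 (rho 0.631) and *Lum* 0.764 (rho 0.670), with adjusted p for r of 0.00447 and 0.00965 by permutation. For *Col1a1* r was 0.682 (rho 0.583) and for *Col3a1* 0.503 (rho 0.558), with adjusted p for r of 0.0159 and 0.124 by permutation. Without the pair of mice farthest from the median of the list, r was 0.645 for *Dcn*, 0.724 for *Lum*, 0.244 for *Col1a1* and 0.162 for *Col3a1*. By rank, *Dcn* and *Lum* lay close to these collagens (adjusted p for rho from 0.0304 to 0.0342 by permutation). These values belong to 27 relations computed after the data had been seen, between 3 marker lists and the 9 members.

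By mean level over the 18 arrays, *Dcn* was brighter than 77% of probesets, *Igfbp2* than 75.8% and *Igf2* than 74.5%. The type I chains stood at 66.6% (*Col1a2*) and 63.4% (*Col1a1*), *Slc6a13* at 59.8% and *Col3a1* at 53.6%. *Ogn* (32.1%) and *Lum* (27.6%) were dim on average, and probesets this dim may respond less than in proportion to their transcript. Probes differ in brightness, so this order does not rank the transcripts.

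Collagen genes were lower at ‘peak’ than at ‘trough’ BP, *Col1a1* in both strains, *Col1a2* in BPH/2J and *Col3a1* in BPN/3J mice by the test. *Col1a1* was 6.73 at the lowest, 6.96 at the median and 7.19 at the highest in BPH/2J ‘peak’ mice, against 7.68, 7.54 and 7.61 in the BPH/2J ‘trough’ mice 1, 2 and 3. All 6 ‘peak’ values lay under all 3 ‘trough’ values. In BPN/3J mice the ‘peak’ values ran from 6.87 through a median of 6.95 to 7.59, and the ‘trough’ mice 1, 3 and 4 had 8.01, 7.81 and 7.77, again with no overlap. *Col1a1* fell by 0.65 on the log2 scale in BPH/2J mice (SE 0.15, -1.57-fold, adjusted p = 0.0113 from limma over all probesets) and by 0.81 in BPN/3J mice (SE 0.15, -1.75-fold, adjusted p = 0.00175).

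*Col1a2*, the partner chain of *Col1a1*, was 7.0 at the lowest, 7.27 at the median and 7.70 at the highest in BPH/2J ‘peak’ mice, and 8.04, 7.79 and 8.0 in the ‘trough’ mice. The groups did not overlap, and *Col1a2* fell by 0.65 (SE 0.19, adjusted p = 0.0456 from limma). In BPN/3J mice it ran from 6.94 through 7.25 to 8.12 at ‘peak’ BP and was 7.92, 7.86 and 7.70 at ‘trough’ BP. Here ‘peak’ mouse 7, with 8.12, exceeded all ‘trough’ mice of its strain, and the difference of -0.50 did not pass (SE 0.19, adjusted p = 0.0678 from limma). Without that mouse the difference was -0.66 and passed (adjusted p = 0.00352 from limma).

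*Col3a1*, which forms fibrils together with type I collagen, was 6.06 at the lowest, 6.28 at the median and 6.71 at the highest in BPH/2J ‘peak’ mice, and 6.97, 6.76 and 6.80 in the ‘trough’ mice. These groups did not overlap either, with a difference of -0.50 that did not pass (SE 0.16, adjusted p = 0.0692 from limma). In BPN/3J mice the ‘peak’ values ran from 6.10 through 6.20 to 6.89, the ‘trough’ values were 7.04, 6.96 and 6.73, and *Col3a1* fell by 0.59 (SE 0.16, adjusted p = 0.0165 from limma). Only ‘peak’ mouse 7 lay within the range of the ‘trough’ mice of that strain.

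With each array left out in turn the differences stayed close to these values, while some calls ended. For *Col1a2* in BPH/2J mice the difference was -0.73 to -0.60 and the call ended for 13 of the 18 arrays, ‘peak’ and ‘trough’ mice among them (adjusted p up to 0.186, without BPH/2J ‘trough’ mouse 1). For *Col1a1* in BPH/2J mice the difference was -0.70 to -0.60 and the call ended without BPH/2J ‘trough’ mouse 1 (-0.61, adjusted p = 0.07 from limma). The BPN/3J call for *Col3a1* ended without ‘trough’ mouse 1 (adjusted p = 0.0868) or 3 (adjusted p = 0.0654), and that for *Col1a1* held whichever array was left out (adjusted p from 0.000266 to 0.0154).

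**Figure D1:**
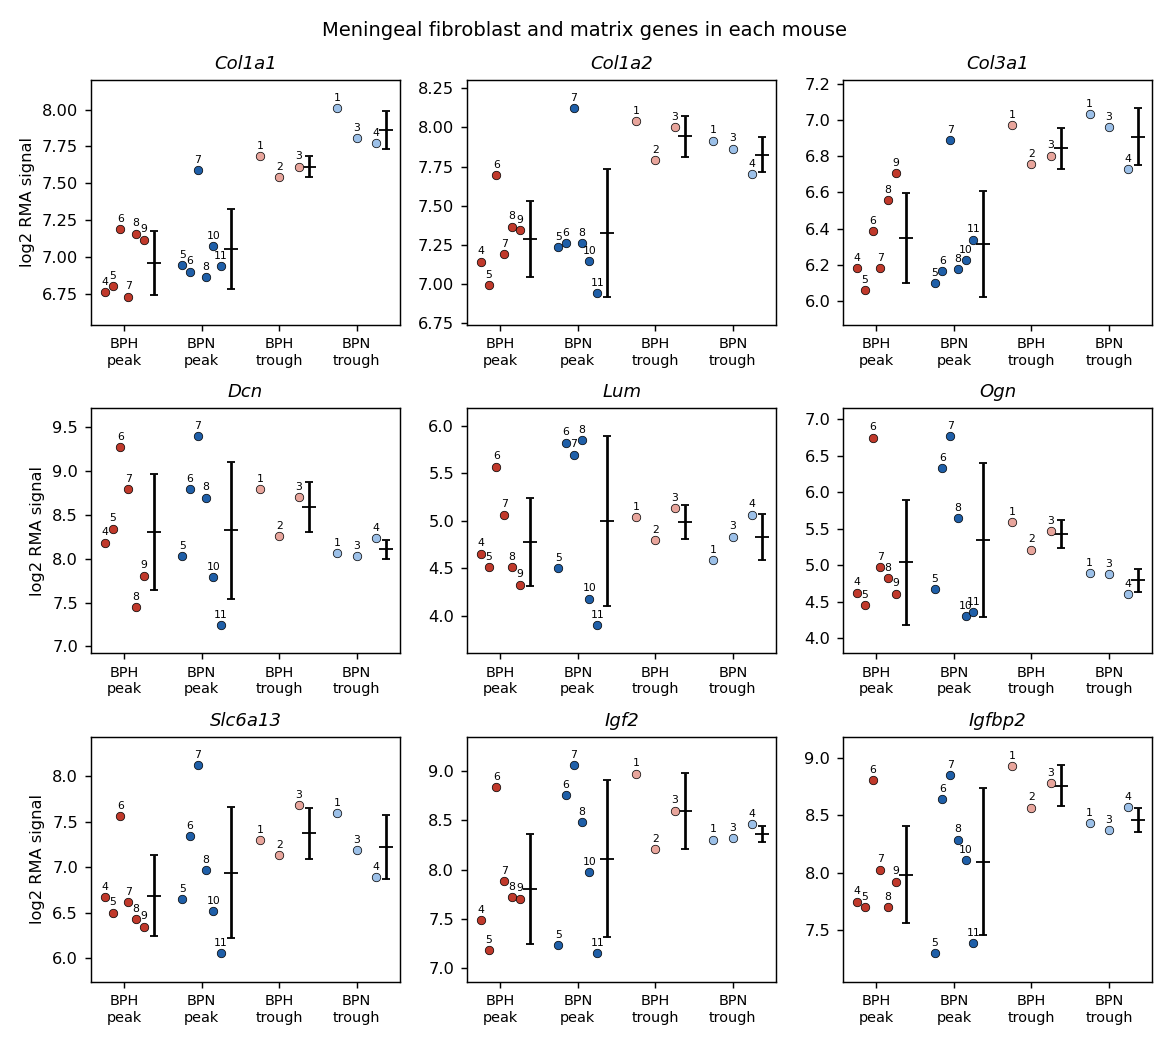
Log2 RMA signal (vertical axes) of the 9 genes in the 18 mice, by strain and time, with the mouse number beside each point and the mean ± SD of the group as a bar at its right. *Col1a1* at ‘peak’ BP lay under all ‘trough’ values of the same strain, while *Ogn* ran from 4.30 to 6.77 within the ‘peak’ mice.

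Counted over all 9 members, 2 passed as lower at ‘peak’ BP in BPH/2J mice (*Col1a1*, *Col1a2*) and 2 in BPN/3J mice (*Col1a1*, *Col3a1*), and 0 passed as higher in either strain. Of all probesets, 8.64% passed in BPH/2J mice, 4.39% as lower, and 25.3% passed in BPN/3J mice, 12.4% as lower. For 3 members in BPH/2J mice, the collagens, every ‘peak’ value lay under every ‘trough’ value, as for 9.55% of all probesets. For BPN/3J this was so for 1 member, *Col1a1*, and for 9.26% of all probesets. The median difference from ‘trough’ to ‘peak’ BP over the 9 members was -0.65 in BPH/2J mice, with 9 of 9 negative, and -0.28 in BPN/3J mice, with 6 of 9 negative, against medians of -0.02 and -0.01 over all probesets. In bulk tissue, fewer fibroblasts and less of these transcripts per fibroblast cannot be told apart.

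The 3 proteoglycans showed no such step between times. *Dcn* differed by -0.28 (SE 0.40) in BPH/2J and 0.22 (SE 0.40) in BPN/3J mice from ‘trough’ to ‘peak’ BP, *Lum* by -0.21 (SE 0.40) and 0.17 (SE 0.40), and *Ogn* by -0.39 (SE 0.53) and 0.55 (SE 0.53), with adjusted p from 0.456 to 0.805 in limma. Their intervals were wide, from -1.50 to 0.73 for *Ogn* in BPH/2J mice. Among the last 3 members the BPH/2J differences were larger and still did not pass. *Slc6a13* had -0.68 (SE 0.35, adjusted p = 0.252 from limma), *Igf2* -0.79 (SE 0.39, adjusted p = 0.237) and *Igfbp2* -0.77 (SE 0.30, adjusted p = 0.128). The BPN/3J differences were -0.28, -0.25 and -0.36, with adjusted p from 0.386 to 0.654. Without BPH/2J ‘peak’ mouse 6, *Igfbp2* passed in BPH/2J mice with -0.94 (adjusted p = 0.0488 from limma).

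**Figure D2:**
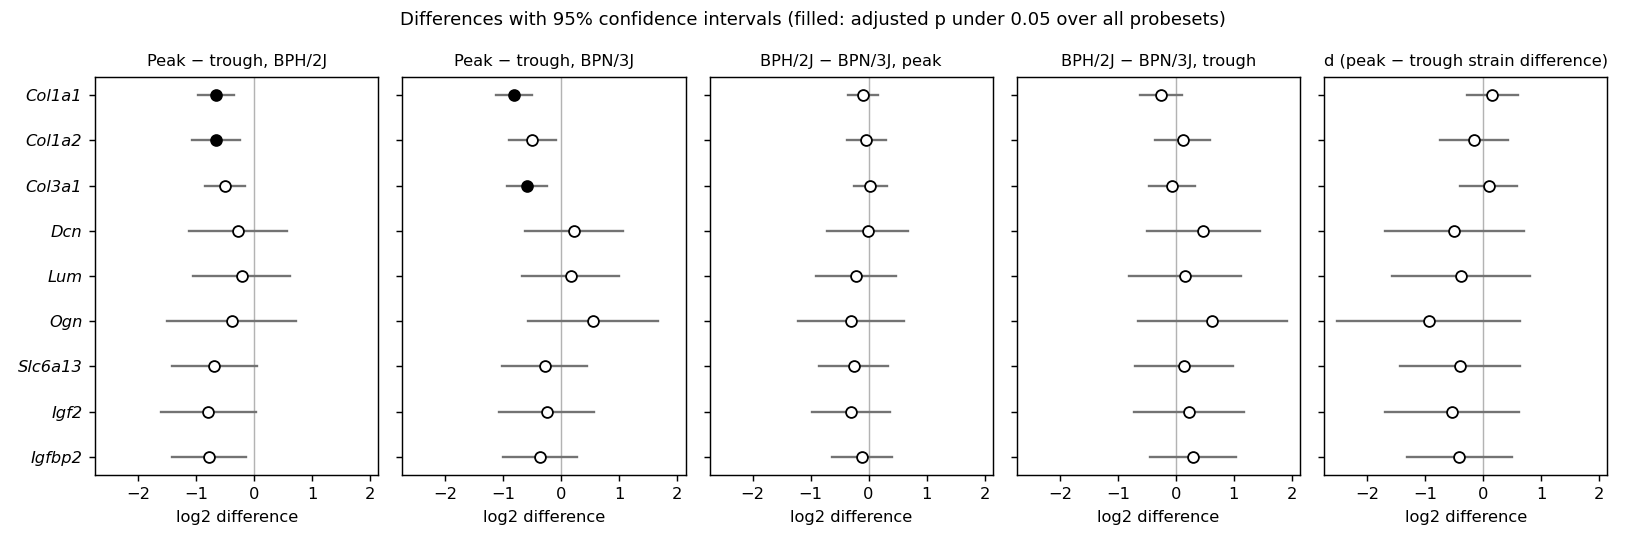
Differences of the 9 genes on the log2 scale (horizontal axes) in the 5 comparisons, with 95% confidence intervals and filled points where the adjusted p over all probesets was under 0.05. Filled points occur at *Col1a1* in both strains, *Col1a2* in BPH/2J and *Col3a1* in BPN/3J mice, all in the comparisons of ‘peak’ with ‘trough’ BP.

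Among ‘peak’ mice, the members other than the collagens spread more within a group than the collagens did. *Ogn* had a SD of 0.86 in the BPH/2J and 1.06 in the BPN/3J ‘peak’ mice, where *Col1a1* had 0.21 and 0.27. This was not so in the BPN/3J ‘trough’ mice, where *Igf2* had a SD of 0.09 and *Col1a1* 0.13. In BPH/2J ‘peak’ mice *Ogn* was 4.46 at the lowest, 4.72 at the median and 6.75 at the highest, in mouse 6. In BPN/3J ‘peak’ mice it was 4.30, 5.16 and 6.77, with the highest value in mouse 7 and 6.34 in mouse 6. The ‘trough’ mice lay between these extremes, with 5.59, 5.22 and 5.47 in BPH/2J and 4.89, 4.88 and 4.61 in BPN/3J. Over the 12 ‘peak’ mice the highest value exceeded the lowest 5.54-fold for *Ogn*, 4.42-fold for *Dcn*, 4.19-fold for *Slc6a13*, 3.85-fold for *Lum*, 3.75-fold for *Igf2* and 2.93-fold for *Igfbp2*. For the collagens this ratio was 2.27-fold (*Col1a2*), 1.81-fold (*Col1a1*) and 1.78-fold (*Col3a1*).

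High and low values of these 6 members fell in part on the same mice. *Igf2*, the growth factor, was 9.06 in BPN/3J ‘peak’ mouse 7, 8.97 in BPH/2J ‘trough’ mouse 1 and 8.83 in BPH/2J ‘peak’ mouse 6, and it was lowest, at 7.15, in BPN/3J ‘peak’ mouse 11. *Igfbp2* was 8.85, 8.93 and 8.80 in the same 3 mice and 7.39 in mouse 11, with its lowest value, 7.30, in BPN/3J ‘peak’ mouse 5. *Dcn* was 9.39, 8.79 and 9.27 in the 3 mice and 7.24 in mouse 11. *Slc6a13* was 8.12, 7.30 and 7.56 there and 6.05 in mouse 11, and BPH/2J ‘trough’ mouse 3, with 7.68, exceeded 2 of the 3. *Lum*, the dimmest member, was highest in BPN/3J ‘peak’ mouse 8 with 5.85 and mouse 6 with 5.82, and 3.90 in mouse 11. The mean deviation over all 9 members from their means over the arrays was 0.83 in BPN/3J ‘peak’ mouse 7, 0.56 in BPH/2J ‘peak’ mouse 6 and 0.48 in BPH/2J ‘trough’ mouse 1, and -0.74 in BPN/3J ‘peak’ mouse 11.

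Within groups the 6 members moved together. Over the 15 pairs among them, r between group-centred values was 0.764 to 0.973 and rho 0.631 to 0.938, and for 15 of 15 pairs the adjusted p for r was under 0.05 (permutation test within groups over 18 mice, adjusted over all 36 pairs of members). The closest pair was *Igf2* with its binding protein *Igfbp2*, with r = 0.973, rho = 0.938 and r = 0.951 without the pair of mice farthest from the median of *Igf2* (adjusted p = 0.00072 for r by permutation). *Ogn* and *Slc6a13*, genes on different chromosomes, had r = 0.907 and rho = 0.862, and 0.807 without the farthest mice (adjusted p = 0.00122 for r by permutation). *Dcn* and *Lum*, which lie side by side on chromosome 10, had r = 0.884, rho = 0.884 and 0.837 without the farthest mice (adjusted p = 0.00122 for r by permutation).

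The collagens also correlated among themselves, with *Col1a2* as close to other members. *Col1a1* and *Col3a1* had r = 0.889 and rho = 0.814, and 0.847 without the farthest mice (adjusted p = 0.00405 for r by permutation), and *Col1a1* and *Col1a2* had r = 0.861 and rho = 0.721, and 0.625 without the farthest mice (adjusted p = 0.00412 by permutation). *Col1a2* and *Col3a1* had r = 0.753 and rho = 0.717, and 0.597 without the farthest mice (adjusted p = 0.0293 for r by permutation). Between collagens and the other members, 5 of 18 pairs had an adjusted p under 0.05 for r, all 5 with *Col1a2*. *Col1a2* correlated with *Slc6a13* at 0.854 (rho 0.595) and with *Ogn* at 0.796 (rho 0.723), both above its r with *Col3a1*, which became 0.599 and 0.558 without the farthest mice. *Col1a1* and *Dcn* had r = 0.255 and rho = -0.024, and *Col3a1* and *Lum* had r = 0.060 and rho = -0.005 (adjusted p = 0.483 and 0.913 for r by permutation). All pairs share the same arrays, and the division into collagens and other members was read from the genes' roles after the values were known.

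**Figure D3:**
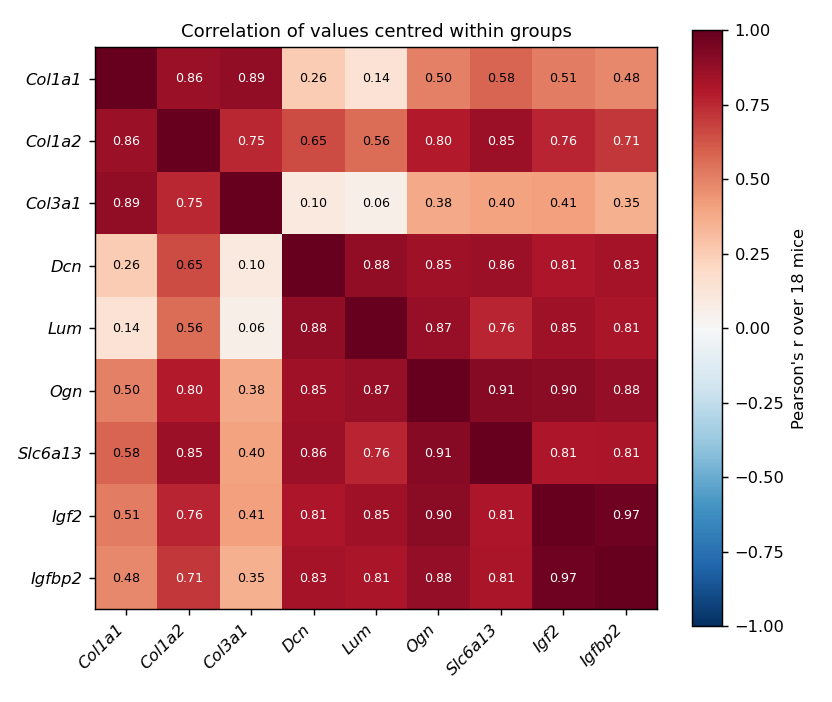
Pearson's r between the log2 values of each pair of the 9 genes over 18 mice, after subtracting the mean of each group. The 15 pairs among *Dcn*, *Lum*, *Ogn*, *Slc6a13*, *Igf2* and *Igfbp2* ran from 0.764 to 0.973, and *Col1a1* and *Col3a1* with these 6 genes ran from 0.060 to 0.581.

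Choroid plexus markers moved with the members other than the collagens. A score over 14 of them, the mean of their deviations, correlated within groups with *Lum* at r = 0.860 (rho 0.895), with *Igf2* at 0.792 (0.895), with *Ogn* at 0.750 (0.814), with *Dcn* at 0.748 (0.80) and with *Igfbp2* at 0.736 (0.781), with adjusted p for r from 0.00072 to 0.00741 (permutation test within groups over 18 mice). *Slc6a13* had 0.502 (rho 0.593, adjusted p = 0.0898 by permutation). For *Col1a1*, *Col1a2* and *Col3a1* r was 0.023, 0.378 and -0.014. The most *Ttr* was found in BPN/3J ‘peak’ mouse 6 (13.58), BPN/3J ‘peak’ mouse 8 (13.39), BPH/2J ‘peak’ mouse 6 (13.38) and BPH/2J ‘trough’ mouse 1 (13.37), and *Kl*, the Klotho gene of the same tissue, was 8.20, 7.83, 8.11 and 8.08 in them. BPN/3J ‘peak’ mouse 7, the highest of all mice for *Col1a2*, *Dcn*, *Ogn*, *Slc6a13* and *Igf2*, had 12.61 and 6.84. The mean level of the 14 markers was 5.82 to 7.40 in BPH/2J ‘peak’ mice and 5.81 to 7.75 in BPN/3J ‘peak’ mice, and 5.95 to 7.32 and 6.12 to 7.16 in the ‘trough’ mice, and 0 of the 14 passed in any comparison (2 had an unadjusted p under 0.05 in limma, between the strains at ‘peak’ BP). In that comparison 14 of 14 were lower in BPH/2J mice, with a median of -0.33. *Igf2* and *Igfbp2* are also expressed by choroid plexus. Its part in these levels was not tested.

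**Figure D4:**
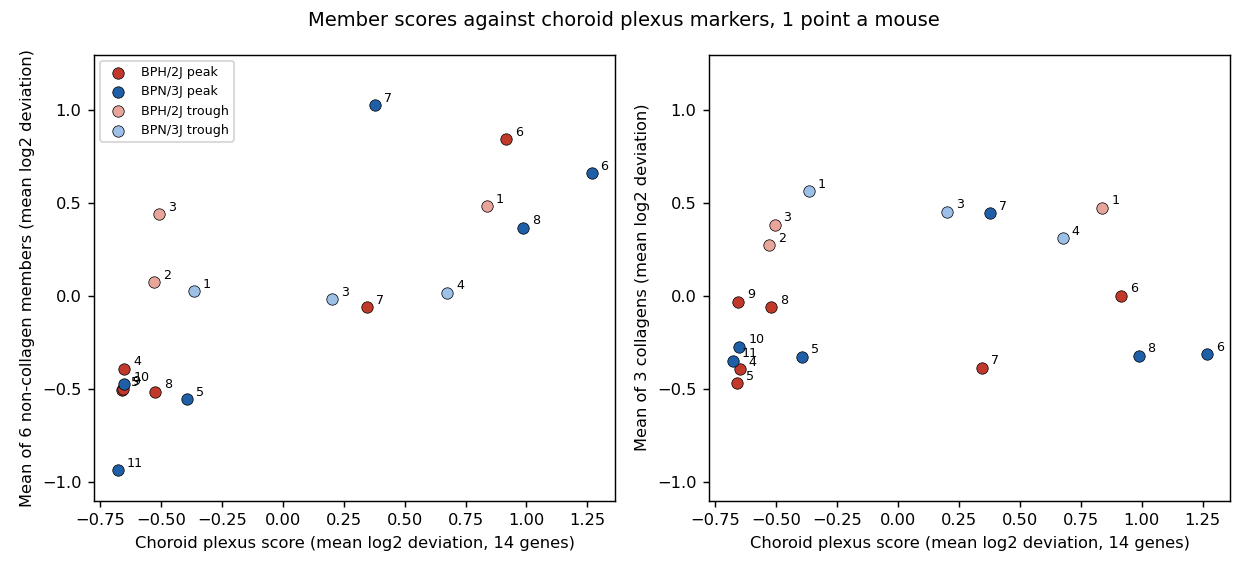
Mean log2 deviation of the 6 members that are no collagens (left) and of the 3 collagens (right), on the vertical axes, against that of 14 choroid plexus markers, on the horizontal axes, with 1 point per mouse and its number. At the left BPN/3J ‘peak’ mouse 11 was lowest (-0.94) and mouse 7 highest (1.03), and at the right the 6 ‘trough’ mice lay between 0.28 and 0.57 at any choroid plexus score.

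Markers of vessel walls moved with the collagens and, by Pearson's r but not by rank, with some other members. The mean deviation of 14 smooth muscle and pericyte genes correlated within groups with *Col1a2* at r = 0.843 (rho 0.657), *Col1a1* at 0.817 (0.655), *Slc6a13* at 0.797 (0.474), *Igfbp2* at 0.676 (0.445), *Col3a1* at 0.669 (0.639), *Ogn* at 0.653 (0.424) and *Igf2* at 0.652 (0.443), with adjusted p for r from 0.00336 to 0.0406 (permutation test within groups over 18 mice). *Dcn* had 0.555 and *Lum* 0.388, with adjusted p of 0.0596 and 0.298 by permutation. Without the pair of mice farthest from the median of the score, r was 0.520 for *Col1a1*, 0.443 for *Col1a2*, 0.440 for *Slc6a13* and 0.411 for *Col3a1*. For *Igfbp2*, *Igf2*, *Ogn*, *Dcn* and *Lum* it was 0.330, 0.296, 0.138, 0.045 and -0.004. By rank, the adjusted p for rho was 0.00418 to 0.0112 for the collagens and 0.13 to 0.511 for the other members (permutation test within groups). Of these 14 genes, 5 passed as lower at ‘peak’ BP in BPH/2J mice, where 4.39% of all probesets did. In BPN/3J mice 4 passed as lower and 1 as higher, where 25.3% of all probesets passed and 12.4% as lower. *Pdgfrb*, the receptor that marks pericytes and fibroblasts, fell by 0.67 (SE 0.10, adjusted p = 0.0012 from limma) in BPH/2J and by 0.30 (SE 0.10, adjusted p = 0.0395) in BPN/3J mice, and *Cnn1*, the smooth muscle calponin, by 0.56 and 0.75 (adjusted p = 0.0446 and 0.00524). The mean level of the list was 7.02 to 7.28 in BPH/2J and 6.91 to 7.43 in BPN/3J ‘peak’ mice, and 7.42 to 7.57 and 7.19 to 7.42 in the ‘trough’ mice. Of 13 endothelial genes, 4 passed as lower in BPH/2J mice, and 2 as lower and 2 as higher in BPN/3J mice. With the smooth muscle score as a covariate the difference of *Col1a1* was -0.13 in BPH/2J mice (adjusted p = 0.837 from limma) and -0.56 in BPN/3J mice (adjusted p = 0.00817), that of *Col1a2* in BPH/2J mice was 0.07 (adjusted p = 0.941) and that of *Col3a1* in BPN/3J mice -0.36 (adjusted p = 0.117). With the choroid plexus score in its place the 4 calls held (adjusted p from 0.0021 to 0.0422). Since the muscle markers differ between the times themselves, such a fit cannot tell the amount of vessel wall from the time. The score of the other leptomeningeal markers left -0.45 for *Col1a1* (adjusted p = 0.0636) and -0.29 for *Col1a2* (adjusted p = 0.165) in BPH/2J mice, and -0.67 for *Col1a1* (adjusted p = 0.00323) and -0.48 for *Col3a1* (adjusted p = 0.0429) in BPN/3J mice.

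The ‘peak’ mice with the 2 highest numbers of their strain, BPH/2J mice 8 and 9 and BPN/3J mice 10 and 11, had *Dcn* values of 7.44, 7.81, 7.79 and 7.24, under the 8.03 to 9.39 of the 8 other ‘peak’ mice. *Slc6a13* was 6.05 to 6.52 in them and 6.50 to 8.12 in the others, and *Lum* 3.90 to 4.52 and 4.50 to 5.85. Within BPH/2J mice, *Col3a1* went the other way, with 6.56 and 6.71 in mice 8 and 9 and 6.06 to 6.39 in mice 4 to 7. The labels give no batch, and this division by number was made after the values were seen.

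Against these spreads, the strains were not distinguished by any member. At ‘peak’ BP the differences of BPH/2J from BPN/3J mice lay between -0.31 (*Ogn*, SE 0.43) and 0.03 (*Col3a1*, SE 0.13), with 8 of 9 negative and a median of -0.11. Here 0 of 9 passed (adjusted p from 0.851 to 0.996 in limma, and 0 with an unadjusted p under 0.05), where 1.33% of all probesets did, and the strains overlapped for all 9 members, with 1.57% of all probesets free of overlap. For the collagens the 95% intervals of the strain difference were narrow, -0.35 to 0.16 for *Col1a1*, -0.37 to 0.30 for *Col1a2* and -0.25 to 0.31 for *Col3a1*. For *Ogn* the interval ran from -1.22 to 0.61. At ‘trough’ BP the differences lay between -0.25 (*Col1a1*, SE 0.17) and 0.63 (*Ogn*, SE 0.61), with 7 of 9 positive and a median of 0.16. Again 0 of 9 passed (adjusted p from 0.616 to 0.928 in limma, and 0 with an unadjusted p under 0.05), against 0.529% of all probesets. The 3 mice per strain did not overlap for *Col1a1*, which was lower in BPH/2J mice, or for *Dcn* and *Ogn*, which were higher, and did not overlap for 19.9% of all probesets.

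The study ranked genes by *d*, in which the difference of BPH/2J from BPN/3J mice at ‘trough’ BP is subtracted from the same difference at ‘peak’ BP, expressed as the signed fold *aFD* and called without a test from 1.5 on. *Ogn* had the largest value among the members, with *d* = -0.94 (SE 0.75, 95% interval -2.52 to 0.64) and an *aFD* of -1.92, and it was the only 1 of the 9 beyond 1.5 in size. Over all probesets 5.93% were beyond it. *Igf2* followed with -0.54 (*aFD* -1.45), then *Dcn* with -0.49 (-1.41), *Igfbp2* with -0.41 (-1.33), *Slc6a13* with -0.40 (-1.32), *Lum* with -0.38 (-1.30) and *Col1a2* with -0.16 (-1.11). *Col3a1* and *Col1a1* had 0.09 and 0.16. In limma 0 of 9 passed for *d* (adjusted p from 0.708 to 0.914, and 0 with an unadjusted p under 0.05), and 0% of all probesets did, 2890 of which had an unadjusted p under 0.05. The *d* of *Ogn* was -0.65 without BPN/3J ‘peak’ mouse 7 and -1.28 without BPH/2J ‘peak’ mouse 6. It was -1.29 with the lower-numbered ‘peak’ mice only and -0.24 with the higher-numbered only, a division made after the data were seen.

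Genes of the same pathways were taken from lists by role. Among 27 measured partners and processing enzymes of fibrillar collagen, 3 passed as lower at ‘peak’ BP in BPH/2J mice, 5 as lower and 1 as higher in BPN/3J mice, and 1 was lower in BPH/2J mice at ‘peak’ BP. Of all probesets 8.64% passed between the times in BPH/2J mice, 4.39% as lower, and 25.3% in BPN/3J mice, 12.4% as lower. Between the strains at ‘peak’ BP 1.33% passed. The median differences from ‘trough’ to ‘peak’ BP were -0.13 and -0.23. *Fn1*, the fibronectin gene, fell by 0.77 in BPH/2J mice (SE 0.15, adjusted p = 0.00426 from limma) and *Loxl1*, a lysyl oxidase that cross-links elastin, by 0.43 (SE 0.09, adjusted p = 0.00619). *Col5a2*, the type V chain beside *Col3a1* on chromosome 1, fell by 0.36 in BPN/3J mice (SE 0.12, adjusted p = 0.0301), and *Plod2*, a lysyl hydroxylase of collagen, rose by 0.41 (SE 0.14, adjusted p = 0.0414). *P4ha3*, a prolyl hydroxylase subunit, was lower by 0.56 in BPH/2J mice at ‘peak’ BP (-0.56, SE 0.07, adjusted p = 0.000248). *Serpinh1*, the collagen chaperone, had -0.10 and -0.12 between the times, *Lox* 0.02 and -0.30 and *Sparc* -0.17 and -0.24, none of which passed.

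Of 12 other small leucine-rich proteoglycans, 0 passed in BPH/2J mice, where 8.64% of all probesets did. In BPN/3J mice 2 passed as lower and 1 as higher at ‘peak’ BP, where 25.3% of all probesets passed and 12.4% as lower. *Ecm2*, of the same chromosome 13 cluster as *Ogn*, rose by 0.67 (SE 0.22, adjusted p = 0.0346 from limma), and *Podn* and *Podnl1*, podocan and its relative, fell by 0.42 and 0.45 (adjusted p = 0.0467 and 0.0216). *Aspn* (asporin) and *Omd* (osteomodulin), of the same cluster, had 0.74 (SE 0.32, adjusted p = 0.0905) and 0.16 (SE 0.14, adjusted p = 0.41). *Kera* and *Epyc*, which follow *Dcn* and *Lum* on chromosome 10, differed by -0.14 and 0.20 in BPN/3J mice and did not pass. *Bgn*, the biglycan gene, had -0.59 in BPH/2J mice (SE 0.20, adjusted p = 0.0761).

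In the axis of insulin-like growth factors, 4 of 15 other genes passed as lower and 1 as higher at ‘peak’ BP in BPH/2J mice. In BPN/3J mice 4 passed as lower and 2 as higher. The shares over all probesets were 8.64% in BPH/2J mice, 4.39% as lower, and 25.3% in BPN/3J mice, 12.4% as lower. *Igf1* rose in both strains, by 0.43 (SE 0.08, adjusted p = 0.00323 from limma) and 0.51 (SE 0.08, adjusted p = 0.000609). The receptors *Igf1r* and *Igf2r* fell in BPH/2J mice by 0.49 (SE 0.11, adjusted p = 0.0125) and 0.50 (SE 0.10, adjusted p = 0.00496), and had -0.23 and -0.15 in BPN/3J mice, which did not pass. Whether the strains differ in this was tested by *d*, with -0.25 (adjusted p = 0.652) and -0.35 (adjusted p = 0.594). *Irs2*, the insulin receptor substrate, fell by 0.48 and 0.55 (adjusted p = 0.00655 and 0.00157). *Igfbp5*, the neighbour of *Igfbp2* on chromosome 1, had -0.04 and 0.10, and *Igfbp6* fell by 0.60 in BPN/3J mice (SE 0.19, adjusted p = 0.0285).

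Among 4 transporters of GABA, betaine and related solutes other than *Slc6a13*, 1 passed as lower in BPH/2J mice and 2 did in BPN/3J mice. As lower, 4.39% and 12.4% of all probesets passed. *Slc6a12*, the betaine transporter gene that lies 4852 bp from *Slc6a13* on chromosome 6, fell by 0.67 in BPN/3J mice (SE 0.21, adjusted p = 0.0278 from limma) and had -0.40 in BPH/2J mice (adjusted p = 0.269). *Slc6a8*, the creatine transporter, fell by 0.61 and 0.53 (adjusted p = 0.0025 and 0.00336), and *Slc6a11*, a GABA transporter of astrocytes, had -0.14 and -0.19, which did not pass.

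Of the 45 other leptomeningeal and fibroblast markers, 3 passed as lower at ‘peak’ BP in BPH/2J mice, 9 as lower and 1 as higher in BPN/3J mice, and 0 between the strains at either time. Over the whole array 8.64% of probesets passed for BPH/2J and 25.3% for BPN/3J. The median differences between the times were -0.26 and -0.31. The laminin chains *Lamc3* (-0.46 and -0.45, adjusted p = 0.00595 and 0.00365 from limma) and *Lama1* (-0.37 and -0.29, adjusted p = 0.0123 and 0.0208) fell in both strains. *Aebp1*, a protein that binds collagen, fell by 0.93 in BPH/2J mice (SE 0.28, adjusted p = 0.0456), and in BPN/3J mice *Eln*, the elastin gene, fell by 0.67 (SE 0.14, adjusted p = 0.00405) and *Col6a2*, of type VI collagen, by 0.46 (SE 0.12, adjusted p = 0.014). *Cdh1*, the E-cadherin of arachnoid barrier cells, fell by 0.46 in BPN/3J mice (SE 0.12, adjusted p = 0.0149). The transcription factor genes *Foxc1* and *Tbx18* and the prostaglandin D synthase gene *Ptgds* passed in no comparison.

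Over 19928 genes, those whose group-centred values most resembled the mean of the 9 members over the 18 mice were *Aldh1a2* (r = 0.972, rho 0.944), a retinaldehyde dehydrogenase of the meninges, *Bmp6* (0.961, rho 0.907), a bone morphogenetic protein, *Islr* (0.956, rho 0.930), a leucine-rich repeat protein of fibroblasts, and *Aebp1* (0.952, rho 0.870). *Ranbp3l*, *Slc13a4*, *Thbd*, *Tgfbr3*, *Myof*, *Efemp1*, *Pcolce*, *Colec12*, *Fmod*, *A2m* and *Itih2* followed, down to 0.912. Of these 15 genes 6 stand in the list of other leptomeningeal markers and 0 in that of the choroid plexus, and of the first 50 genes 13 and 0. The resemblance is a description, and the points share the arrays. The collagens alone had other neighbours, led by *Ifitm2* (0.930, rho 0.889), *Ascl2* (0.927), *Vwf*, the von Willebrand factor gene of endothelium (0.925), and *Slc22a6* (0.924, rho 0.959). *Slc22a6*, an organic anion transporter, belongs to the list of other leptomeningeal markers. Of the 15 genes most like the collagens 2 stand in that list and 0 in that of the choroid plexus.

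Promoter sequence is shown for the members with 1 promoter in the table used, which are 2 collagens and the proteoglycan with the widest range. Of the 9 members, 6 were matched, with 12 promoter windows in all, in RefSeq (GRCm38.p6), from 250 bases before to 50 after the start. *Col1a1*, *Dcn* and *Lum* had no entry. The sequences are the 120 bases before the start on the plus strand, 5′ to 3′, with capitals for a match on either strand to the CCAAT box, to the TATA box as TATAAA or to the GC box as GGGCGG. The intervals are chr6:4505498-4505617, chr1:45311418-45311537 and chr13:49607895-49608014.
Col1a2: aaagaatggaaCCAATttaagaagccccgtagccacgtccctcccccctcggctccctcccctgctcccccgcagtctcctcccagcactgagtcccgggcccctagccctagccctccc
Col3a1: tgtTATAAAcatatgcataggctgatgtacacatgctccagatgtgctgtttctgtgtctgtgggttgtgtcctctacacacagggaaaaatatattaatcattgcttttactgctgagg
Ogn: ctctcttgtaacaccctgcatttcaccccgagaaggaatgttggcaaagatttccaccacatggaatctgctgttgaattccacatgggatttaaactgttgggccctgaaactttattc
*Col1a2* held CCAAT 109 bases before the start and, outside the stretch shown, on the minus strand 1 base after it. It also held GGGCGG 205 and 188 bases before the start, outside the stretch shown. *Col3a1* held TATAAA 117 bases before the start. *Ogn* held none of the 3 in the stretch shown and TATAAA 227 and 229 bases before the start, on the 2 strands and overlapping. Of 32851 promoters of the same length 37.4% held CCAAT, 13.6% TATAAA and 35.7% GGGCGG on either strand. The nearest promoter of *Igfbp2* held GGGCGG 3 times, and 2 of the 4 of *Igf2* held it. These matches are letters in a window and no evidence of binding, and the members that moved together shared none of the 3 throughout.

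The genes lie at chr11:94936224-94953042 (*Col1a1*), chr6:4505618-4541543 (*Col1a2*), chr1:45311538-45349706 (*Col3a1*), chr10:97479500-97518163 (*Dcn*), chr10:97565501-97572703 (*Lum*), chr13:49608015-49624501 (*Ogn*), chr6:121300288-121337721 (*Slc6a13*), chr7:142650768-142666816 (*Igf2*) and chr1:72824480-72852474 (*Igfbp2*) of GRCm38.p6. These are whole genes with exons and introns, and the place of the probes within them is not given in the sources used here.

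The members were then used as a covariate, to see how far comparisons over all probesets moved with them. The score was the mean of the 9 deviations per mouse. It averaged -0.20 (SD 0.39, n = 6) in BPH/2J ‘peak’ mice and -0.05 (SD 0.59, n = 6) in BPN/3J ‘peak’ mice. The ‘trough’ mice had 0.35 (SD 0.18, n = 3) in BPH/2J and 0.15 (SD 0.04, n = 3) in BPN/3J. With the score centred within groups, which leaves every difference as it was and changes the error only, limma called 500 probesets between the strains at ‘peak’ BP (462 without the score, 446 shared), 188 at ‘trough’ BP (184, 172 shared), 3164 between the times in BPH/2J mice (3005, 2904 shared) and 9021 in BPN/3J mice (8803, 8562 shared). For *d* it called 0, as without the score, with 3025 at an unadjusted p under 0.05.

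With the score centred over all arrays, which adjusts the differences too, the counts were 498 and 172 between the strains, 2212 between the times for BPH/2J and 8906 for BPN/3J, and 0 for *d* (2776 at an unadjusted p under 0.05). Beyond an *aFD* of 1.5 in size lay 2261 probesets in place of 2060, and 1790 were in both. A score of the 3 collagens alone, added after the data were seen, left 67 calls between the times for BPH/2J and 161 for BPN/3J. That score was 0.28 to 0.57 in the ‘trough’ and -0.47 to 0.45 in the ‘peak’ mice, so that it stands nearly for the time itself and the fit cannot tell them apart. The score of the other 6 members left 3125 and 9330 calls. Scores of genes that are no members moved these counts too. The smooth muscle and pericyte score left 2 for BPH/2J and 3622 for BPN/3J, and that of the other leptomeningeal markers 1745 and 7275. By median both scores were lower at ‘peak’ BP for each strain, so that these counts cannot tell tissue from time. With the choroid plexus score there were 3441 and 9645.

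For single genes *d* is given without and with the score. The first 4 were named with their likeness to the members known (*Aldh1a2*, *Slc13a4* and *Fmod* stand among the 15 genes most like the score), so that a smaller *d* after adjustment is built into their choice. *Aldh1a2*, which the study selected on these arrays, had *d* of -0.62 (SE 0.56) without the score and -0.15 (SE 0.16) with it. *Fmod* (fibromodulin), with an *aFD* of -1.56 without the score, had -0.64 (SE 0.63) and -0.14 (SE 0.27). *Slc13a4*, a sulfate transporter, went from -0.51 (SE 0.72) to 0.08 (SE 0.26), and *Bgn* from -0.47 (SE 0.28) to -0.26 (SE 0.15). Neuropeptide genes kept their sign. *Oxt* had 1.75 (SE 0.78) and 1.41 (SE 0.71), *Avp*, the vasopressin precursor, 1.20 (SE 0.69) and 1.09 (SE 0.71), *Trh* 1.07 (SE 0.70) and 1.09 (SE 0.74), and *Hcrt*, the precursor of the orexins, 1.03 (SE 0.53) and 1.02 (SE 0.56). *Zbtb16*, a transcription factor gene, had 0.69 (SE 0.29) and 0.70 (SE 0.31). None of these genes passed for *d* in either fit (adjusted p from 0.596 to 0.945 in limma). For *Oxt*, *Avp*, *Trh*, *Hcrt* and *Zbtb16* the study also reported positive *aFD* values by qPCR, which were not examined here.

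**Figure D5:**
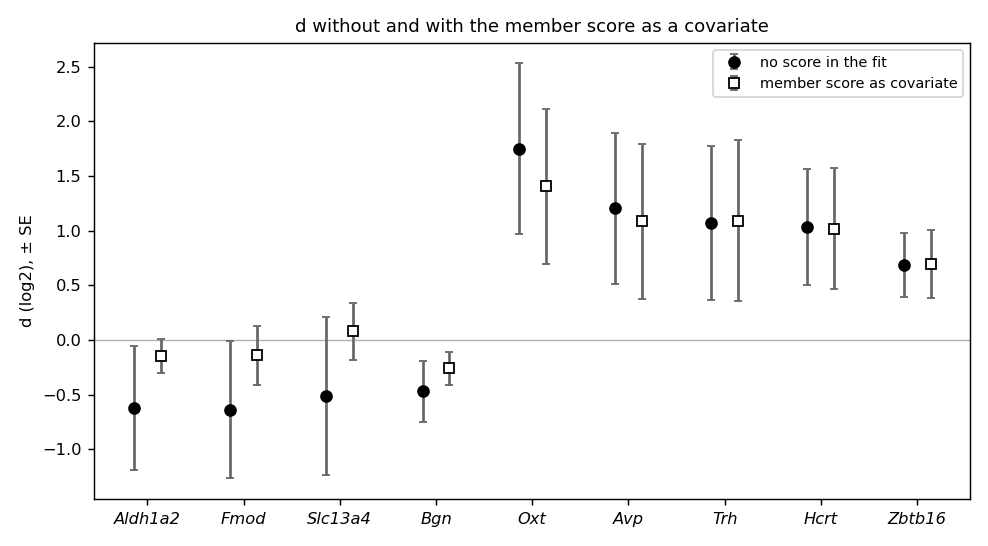
*d* on the log2 scale (vertical axis) with its SE for 9 genes, without a covariate (filled circles) and with the score of the 9 members centred over all arrays (open squares). *Aldh1a2* went from -0.62 to -0.15 and *Fmod* from -0.64 to -0.14, and *Trh* from 1.07 to 1.09. The first 4 genes were chosen with their likeness to the score known.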

How the data were processed

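Total RNA of the hypothalamus of 18 mice was measured on Mouse Gene 1.0 ST arrays. The deposited log2 values were produced by the authors with RMA, and no source used here states its version. Each of the 34760 probesets had a value in every array, and no value was altered. Members and markers were named by the platform annotation, and a marker with several probesets was taken at its brightest. Coordinates and promoters are from RefSeq (GRCm38.p6).

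The 5 comparisons were fitted in 1 model of the 4 groups with limma 3.58.1 in R 4.3.3 (14 residual and 2.94 prior degrees of freedom). Benjamini-Hochberg adjustment took in all probesets, and an adjusted p under 0.05 counted as a call. The procedure was tested on simulated data. Correlations used values centred within groups and 100000 permutations within groups, with Python 3.11.15. Each mouse is 1 sample, and no batch is given in the labels.

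The members, gene lists and most tests were chosen with earlier results of these data known. Every member was named at its probeset. Other genes were fixed by role, taken as up to 4 passing genes per list by p, or taken as the 15 most like the member score. *Vwf*, *Ifitm2*, *Ascl2* and *Slc22a6* and the genes of the score fit other than these were named after their values were seen. Mice sharing a number and a time had residual correlations from -0.30 to 0.19 and were not treated as pairs. So few such mice cannot exclude a pairing. Alternatives were other normalizations, filters, priors and weights, fits of 2 groups, a block for the mouse number, marker scores and leaving out each array.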

Additional observations from a re-analysis of the deposited data

Results flagged for a closer look

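In 6 of the 18 gene and group combinations with 6 mice, the highest mouse was separated from the next by more than Dixon's 95% critical share of the range of the group. Chance alone marks about 1 in 20 groups, and the genes share mice, so these are not 6 independent findings. BPH/2J ‘peak’ mouse 6 was such a mouse for 3 genes, with *Ogn* at 6.75 (next mouse 4.97), *Slc6a13* at 7.56 (next 6.67) and *Igfbp2* at 8.80 (next 8.03). BPN/3J ‘peak’ mouse 7 was such a mouse for the 3 collagens, with *Col1a1* at 7.59 (next 7.08), *Col1a2* at 8.12 (next 7.26) and *Col3a1* at 6.89 (next 6.34). In BPH/2J ‘peak’ mouse 6 *Ttr* was 13.38, and in BPN/3J ‘peak’ mouse 7 it was 12.61, within a range over all mice of 6.46 to 13.58. The leptomeningeal score, over 45 genes that are no members, was 0.37 in BPN/3J ‘peak’ mouse 7 and 0.26 in BPH/2J ‘peak’ mouse 6, and the lowest, -0.38, in BPN/3J ‘peak’ mouse 11.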

How the results depend on the processing

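Of 494 member differences recomputed under other settings, 419 kept their direction and their side of the threshold. Counts of members passing between the strains and for *d* were 0 in all settings run. Sign changes, 58 under other settings and 18 with 1 array left out, concerned 75 values that had not passed and 1 that had, and 1 passed under its alternative (*Lum* below). The causes were not tested. Splits by mouse number and marker scores were chosen after the data were seen. Level differences of dim genes such as *Lum* and *Ogn* are limited by signal over background.

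Members passing from ‘trough’ to ‘peak’ BP in BPH/2J mice, 2 as reported, were 1 after quantile normalization, 1 after median centring and 4 with array weights. There were 3 without dim probesets, with the choroid plexus score or with the lower-numbered ‘peak’ mice only. With the leptomeningeal score there were 0, with the smooth muscle score 0, and with 1 array left out 0 to 3. Calls over all 34760 probesets moved too, from 3005 to 3236 after quantile normalization, 2182 after median centring and 9257 with array weights. Without dim probesets 3764 of 20856 passed. The lower-numbered ‘peak’ mice gave 6675 calls, and leaving out 1 array 1035 to 3533. In BPN/3J mice the members passing, also 2, were 1 with the smooth muscle score and 4 with the higher-numbered ‘peak’ mice only. They were 3 after quantile normalization or with array weights, and 1 to 3 with 1 array left out. With the leptomeningeal score they were 3 as well, *Col1a1* and *Col3a1* as lower and a proteoglycan as higher at ‘peak’ BP. Calls over all probesets for BPN/3J moved from 8803 to 8199 after quantile normalization, 19431 with array weights and 7275 with the leptomeningeal score. The higher-numbered ‘peak’ mice gave 2235, and leaving out 1 array 3826 to 9540. In fits with a score as a covariate, a score of the 3 collagens centred over all arrays left 67 calls between the times for BPH/2J and 161 for BPN/3J. The smooth muscle score left 2 and 3622. With the member score centred within groups, leaving out 1 array gave 395 to 577 calls between the strains at ‘peak’ BP, 92 to 238 at ‘trough’ BP, 1092 to 3583 in BPH/2J mice (lowest without BPH/2J ‘trough’ mouse 1) and 3970 to 9720 in BPN/3J mice (lowest without BPN/3J ‘trough’ mouse 1).

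Sign changes of the strain difference at ‘peak’ BP were these. With array weights *Col3a1* had -0.02, and after median centring *Dcn* had 0.019. With the higher-numbered mice *Col1a1* had 0.131, *Col1a2* 0.312, *Dcn* 0.109, *Igf2* 0.154, *Igfbp2* 0.061, *Lum* 0.38, *Ogn* 0.388 and *Slc6a13* 0.101, and with the lower-numbered *Col3a1* had -0.13. With the choroid plexus score *Col1a2* had 0.014, *Dcn* 0.208, *Igfbp2* 0.053 and *Lum* 0.036, and with the leptomeningeal score *Col1a2* had 0.049, *Dcn* 0.156 and *Igfbp2* 0.033. At ‘trough’ BP *Col3a1* had 0.009 after median centring, and with the smooth muscle score *Col1a2* had -0.261, *Dcn* -0.055, *Igf2* -0.371, *Igfbp2* -0.187, *Lum* -0.205, *Ogn* -0.194 and *Slc6a13* -0.51.

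For *d*, *Col1a2* had 0.195 and *Lum* 0.218 with the higher-numbered mice and *Col3a1* -0.067 with the lower-numbered. With the smooth muscle score *Col1a2* had 0.225, *Dcn* 0.043, *Igf2* 0.071, *Igfbp2* 0.079 and *Slc6a13* 0.261. From ‘trough’ to ‘peak’ BP in BPH/2J mice, *Dcn* had 0.063 with the lower-numbered mice. There *Dcn* had 0.433, *Lum* 0.44, *Ogn* 0.677 and *Slc6a13* 0.009 with the leptomeningeal score. With the smooth muscle score *Col1a2*, which had passed, had 0.074, *Dcn* 0.745, *Igf2* 0.37, *Igfbp2* 0.159, *Lum* 0.49, *Ogn* 1.201 and *Slc6a13* 0.579. In BPN/3J mice *Dcn* had -0.59, *Lum* -0.786 (adjusted p = 0.0368 from limma) and *Ogn* -0.468 with the higher-numbered mice, and *Igf2* 0.022 and *Slc6a13* 0.045 with the lower-numbered. There *Igf2* had 0.271, *Igfbp2* 0.041 and *Slc6a13* 0.185 with the leptomeningeal score, and 0.299, 0.08 and 0.318 with the smooth muscle score.

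With 1 array left out, the strain difference at ‘peak’ BP ran from -0.137 to 0.015 for *Col1a1*, -0.12 to 0.12 for *Col1a2*, -0.042 to 0.145 for *Col3a1*, -0.232 to 0.197 for *Dcn* and -0.276 to 0.039 for *Igfbp2*. *d* of *Col1a2* ran from -0.237 to 0.003, the ‘trough’ strain difference of *Slc6a13* from -0.018 to 0.33 and the BPN/3J time difference of *Lum* from -0.007 to 0.383.

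With the mouse number as a replicate block, over the 12 arrays whose numbers occur in both strains, 0 members passed between the strains or for *d*, *Ogn* had *d* = -1.25 and *Col3a1* had -0.036 between the strains at ‘peak’ BP. The block could not be fitted for the comparisons of times, since no number links them. Averaging several probesets of a gene was not run, since each member has 1, and the filter on dim probesets left out *Lum* and *Ogn*.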
